A study of Homo sapiens with 12 samples.

Results

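The semaphorin, plexin, Eph, ephrin, Slit and Robo genes were followed through the differentiation of human embryonic stem cells toward blood. They were taken by gene symbol: SEMA3 to SEMA7 genes, the A to D plexins, EPHA and EPHB receptors, EFNA and EFNB ligands, SLIT1 to SLIT3 and ROBO1 to ROBO3, leaving out EFNB2 and EPHB4. This gave 55 genes of the 56593 distinct symbols in the table, with no symbol repeated on another line among them. Of these, 48 passed the filter on low values (at least 1 FPKM in at least 3 libraries) and entered the tests beside 14840 genes in all. FPKM is the count of sequenced fragments divided by transcript length and by library size, so levels of different genes can be set side by side.

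All cells came from the human embryonic stem cell line H1, so the data describe a single established line. The groups were undifferentiated H1 cells, APLNR+ cells collected on day 2 (a mesoderm stage), CD31+CD34+ cells collected on day 5 (hemogenic endothelial progenitors) and CD43+ cells collected on day 8 (hematopoietic progenitors), with 3 libraries each. The cultures were given activin A and BMP4 until day 2 and VEGF and bFGF afterwards, so day, medium and sorted marker change together and cannot be told apart. The labels do not say whether the 3 libraries of a group came from separate cultures, and the p-values therefore measure the spread between these libraries, which may be technical.

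Guidance proteins were first described in the growing nervous system, where they steer axons by attraction or repulsion, and most are also used by vessels, blood cells and migrating mesoderm. Semaphorins are ligands read by plexins, with neuropilins as co-receptors for the secreted class 3 members. Ephrins are ligands tethered to the cell surface and read by Eph receptor tyrosine kinases on neighbouring cells, and Slits are secreted ligands of Robo receptors. In vessels, PLXND1 reads semaphorin signals that restrain sprouting, and EFNB2 and EPHB4, which were left out here, mark arteries and veins.

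Absolute depth is unknown for FPKM values. Relative depth, read from the spacing of the lowest values, ran from 0.552 to 1.27 times that of CD43+ replicate 3, and replicate 1 was the shallowest library of each population. Each sorting marker was present in the population sorted for it, but not always highest there. APLNR averaged 0.528 FPKM in H1, 383 in APLNR+ and 403 in CD31+CD34+ cells. PECAM1, which encodes CD31, averaged 55.2 in CD31+CD34+ and 95.9 in CD43+ cells. CD34 averaged 47.7 in CD31+CD34+ cells, and SPN, which encodes CD43, 75.5 in CD43+ cells, each its highest. PTPRC, the pan-leukocyte gene, stayed at or below 0.521 FPKM in the CD43+ libraries. Zeros need care, because the translation factor gene EEF1A1 was listed at 0 in 6 libraries and such entries can be failed estimates. Only 3 of the guidance genes had a 0 in any library (EPHA5, EPHA8 and EPHA10).

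The promoters of 4 genes that carry the main pattern are shown first: PLXNA2 and SEMA5A, which peaked in APLNR+ cells, and PLXND1 and SEMA3G, which peaked in CD31+CD34+ cells. Each line holds the 200 bases before the annotated start in RefSeq (GRCh38.p14, a later build than the hg19 named for the deposited values), written 5′ to 3′ on the gene's strand. All 4 genes lie on the minus strand. Capitals mark the 5 motifs searched on both strands.
PLXNA2 (chr1:208244385-208244584): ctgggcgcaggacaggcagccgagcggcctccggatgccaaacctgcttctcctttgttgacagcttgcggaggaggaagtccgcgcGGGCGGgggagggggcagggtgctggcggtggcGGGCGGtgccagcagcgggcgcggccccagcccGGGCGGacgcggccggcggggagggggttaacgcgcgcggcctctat
SEMA5A (chr5:9546076-9546275): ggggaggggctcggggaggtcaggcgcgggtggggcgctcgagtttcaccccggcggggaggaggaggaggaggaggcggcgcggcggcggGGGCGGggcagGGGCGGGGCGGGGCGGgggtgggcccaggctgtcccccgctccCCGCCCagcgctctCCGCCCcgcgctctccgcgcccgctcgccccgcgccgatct
PLXND1 (chr3:129606677-129606876): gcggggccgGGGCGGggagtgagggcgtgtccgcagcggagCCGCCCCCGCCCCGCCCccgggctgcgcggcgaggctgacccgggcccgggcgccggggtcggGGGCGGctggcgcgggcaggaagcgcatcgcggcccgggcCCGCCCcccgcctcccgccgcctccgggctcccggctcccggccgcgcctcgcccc
SEMA3G (chr3:52445104-52445303): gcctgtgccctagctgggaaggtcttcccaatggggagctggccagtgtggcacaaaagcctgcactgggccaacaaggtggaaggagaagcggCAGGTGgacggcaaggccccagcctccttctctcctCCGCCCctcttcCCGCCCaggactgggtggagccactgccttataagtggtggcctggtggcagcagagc

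In the sequences above, the capitals are copies of the GC box GGGCGG, read as CCGCCC on the other strand, except for a single CAGGTG in the SEMA3G window, the E-box that SNAI-type zinc fingers can bind. Neighbouring GC boxes overlap in the SEMA5A and PLXND1 windows. RefSeq windows matched 50 of the 55 genes. EPHA10, SEMA3A, EFNB3, SEMA6A and SEMA6B had no entry. With 20 genes holding more than 1 listed start, there were 81 windows, with a median GC content of 67% against 59% over all 35116 windows. GGGCGG stood in 54 of the 81 windows (66.7%) and in 40.1% of all windows, and CAGGTG in 11 (13.6%) against 14.2%. The ETS core CCGGAA stood in 3 windows (3.70%) against 12.9%, the GATA motif AGATAA in 3 (3.70%) against 7.16%, and the T-box motif GGTGTGA in 0 against 2.15%. These counts are descriptions of letters in a short window, and say nothing of what binds there.

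Most guidance genes were present as RNA throughout: the mean reached 1 FPKM for 35 of the 55 in H1, 41 in APLNR+, 44 in CD31+CD34+, then 35 in CD43+ cells. The summed level of the 55 genes was 311 ± 18.1 FPKM in H1, 528 ± 19.4 in APLNR+, 740 ± 61.5 in CD31+CD34+, then 284 ± 21.5 in CD43+ cells (SD, n = 3). These sums are not scaled, and the FPKM of all symbols did not add up to a constant total. That total ran from 567793 in CD31+CD34+ replicate 2 to 1564450 in APLNR+ replicate 2. A single gene, PLXND1, made up much of the peak. Without it the sums were 302 ± 19.3, 505 ± 19.8, 423 ± 20.6 and 169 ± 10.8 FPKM, and the highest population was then APLNR+.

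**Figure D1:**
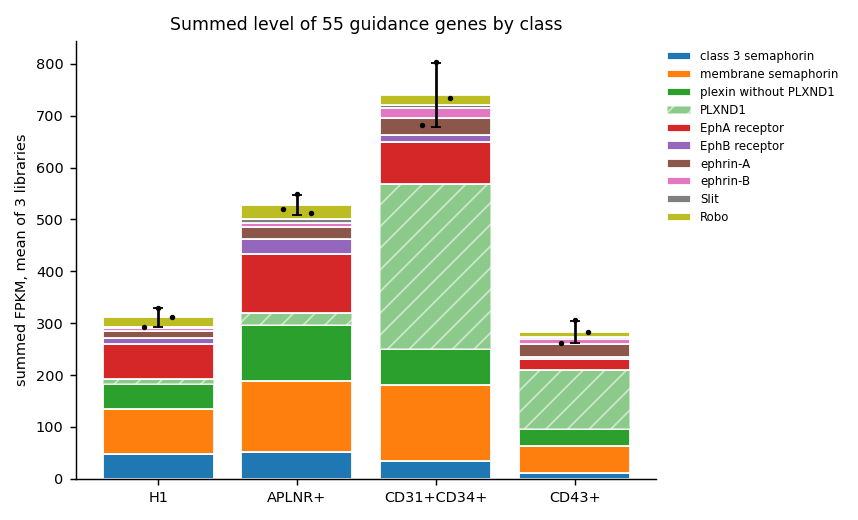
Summed FPKM of the 55 guidance genes in each population, stacked by class (bars, mean of 3 libraries), with the total of each library as a point and the SD of the total as a line. The CD31+CD34+ bar reaches 740 FPKM, of which the hatched PLXND1 segment is 317, while the APLNR+ bar is highest once that segment is set aside.

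The classes did not share a single course. EphA receptors (112 ± 4.53 FPKM), EphB receptors (30.0 ± 3.94) and Slits (7.32 ± 0.301) had their highest sums in APLNR+ cells. Ephrin-A ligands (32.7 ± 3.45), ephrin-B ligands (19.5 ± 1.69) and plexins (387 ± 51.1) had theirs in CD31+CD34+ cells. The plexin peak was that of PLXND1: the other 8 plexins summed to 48.1 ± 0.892 FPKM in H1, 108 ± 10.5 in APLNR+, 70.4 ± 5.20 in CD31+CD34+, then 32.0 ± 2.59 in CD43+ cells, highest in APLNR+ and lowest in CD43+. Class 3 semaphorins averaged 47.9 ± 9.13 in H1 and 51.1 ± 7.72 in APLNR+ cells, with overlapping libraries, before 33.8 ± 3.25 and 11.4 ± 1.68 at the later stages. From APLNR+ to CD31+CD34+ cells, membrane semaphorins averaged 138 ± 10.4 and 147 ± 2.91 FPKM and Robo receptors 26.7 ± 5.12 and 18.8 ± 3.43, with overlapping libraries in both cases. Every class except the ephrin-A ligands, ephrin-B ligands, Slits and, with PLXND1 included, plexins had its lowest sum in CD43+ cells. Among the 48 genes that passed the filter, 11 (22.9%) had their highest mean in H1, 12 (25%) in APLNR+, 21 (43.8%) in CD31+CD34+, then 4 (8.33%) in CD43+ cells. Over all 14840 genes tested, the shares were 34.9%, 18.2%, 24.6% and 22.4%.

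**Figure D2:**
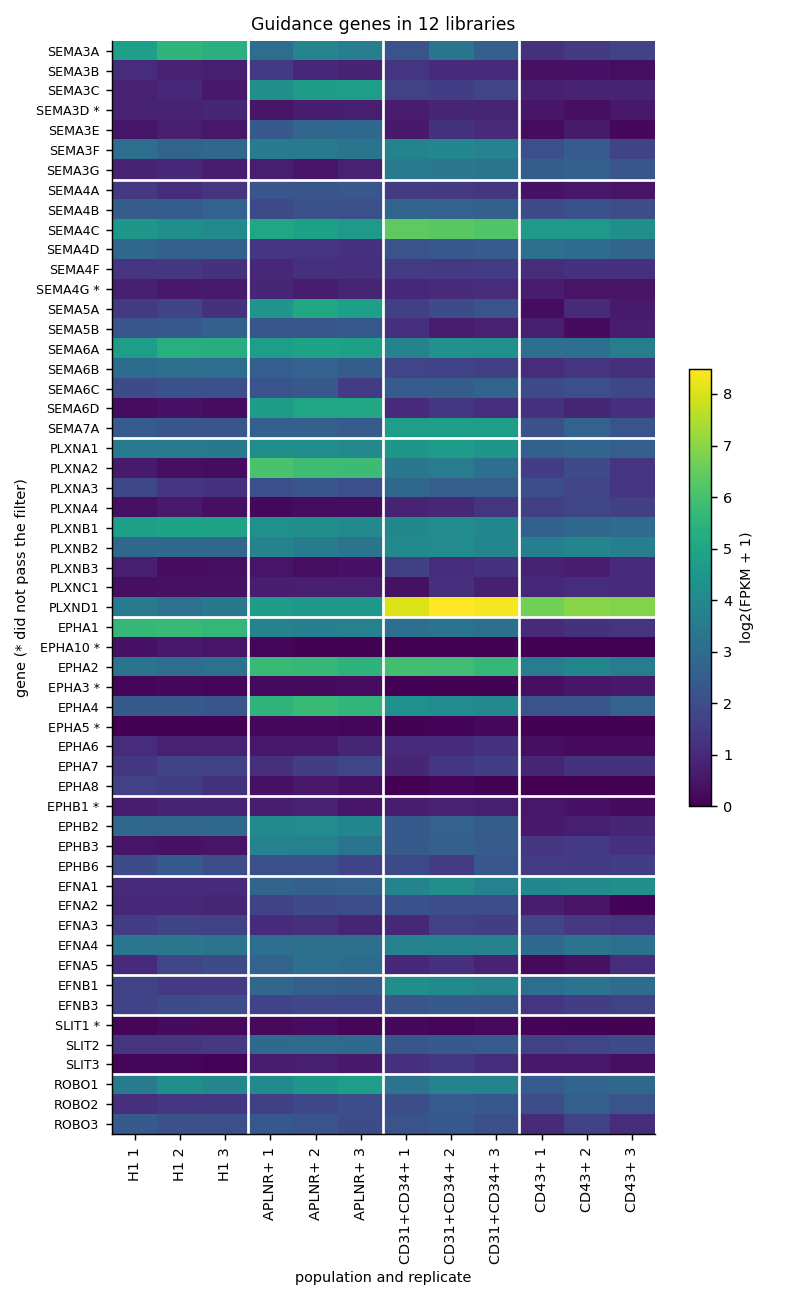
Heat map of log2(FPKM + 1) for the 55 guidance genes (rows, grouped by class) in the 12 libraries (columns, grouped by population). PLXND1 is the brightest row in CD31+CD34+ and CD43+ cells, and PLXNA2, SEMA6D, SEMA3C and SEMA5A form a band in APLNR+ cells.

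Differences between populations were tested with limma on log2(FPKM + 1), with Benjamini-Hochberg adjustment over all genes tested. A gene is said to rise or fall where its adjusted p was under 0.05 and its change at least 2-fold. Log2 changes and the 2-fold limit are on that log2(FPKM + 1) scale, with the SE of the fit. At low levels a gene under this limit can differ by more than 2-fold in FPKM itself. Because the values come from bulk samples, fewer cells of a type and less RNA per cell cannot be told apart in any of them. Consecutive steps share a population, so the changes at neighbouring steps are not independent.

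From H1 to APLNR+ cells, 14 of the 48 genes rose (29.2%) and 4 fell (8.33%). Over all genes tested, 8.30% rose and 7.62% fell. The median change of the 48 was 0.42 against -0.12 for all genes. Semaphorins, plexins and Eph receptors supplied the largest rises, and the pluripotent-stage genes EPHA1 and SEMA3A the largest falls. Summed cardiac and smooth muscle markers moved at this step, from 8.98 to 10.7 FPKM in H1 to between 170 and 193 in APLNR+ libraries. In APLNR+ cells MYL7 averaged 108 and ACTC1 68.5 FPKM. Others of that list stayed low or went down. NKX2-5 went from 0.0253 to 2.77 FPKM and ACTA2 from 0.922 to 1.53, and MYH6 averaged 0.0457 in APLNR+ cells. TNNT2 went down from 4.91 to 2.63 and MYH11 from 0.167 to 0.0240. Summed neural markers went down from between 106 and 138 to between 40.1 and 53.8 FPKM. Nearly all of it was TUBB3, with SOX1, NEUROD1 and PAX6 at or near 0. Endoderm markers went from at most 0.374 to between 19.5 and 21.1 FPKM, and pluripotency markers from between 1597 and 1681 to between 584 and 630. The part of these markers in the results was not tested.

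PLXNA2, an A-type plexin that reads transmembrane semaphorins, had the largest rise. It was at 0.526, 0.265 and 0.214 FPKM in the H1 libraries, 66.0, 56.3 and 55.6 in APLNR+, 9.37, 10.8 and 7.51 in CD31+CD34+, then 1.93, 2.86 and 1.48 in CD43+ cells. The 4 populations did not overlap. Its log2 change was 5.50 ± 0.17 (adjusted p = 1.08e-10) into APLNR+ cells, -2.57 ± 0.17 (adjusted p = 6.83e-08) into CD31+CD34+ cells and -1.74 ± 0.17 (adjusted p = 3.92e-06) into CD43+ cells. In CD43+ cells it was still above its H1 level, by 1.19 ± 0.17 (adjusted p = 4.11e-05).

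SEMA6D encodes a transmembrane semaphorin that binds PLXNA1 and is known from heart development. Its libraries read 0.207, 0.321 and 0.228 FPKM in H1, 24.7, 31.9 and 32.7 in APLNR+, 1.05, 1.57 and 1.20 in CD31+CD34+, then 1.36, 0.863 and 1.20 in CD43+ cells. The gene was near the floor of detection in H1 and high only at day 2, and the last 2 populations overlapped. The rise was 4.61 ± 0.13 (adjusted p = 6.04e-11) and the following fall -3.75 ± 0.13 (adjusted p = 3.77e-10).

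SEMA3C, a secreted semaphorin needed for the cardiac outflow tract, took a like course. It was measured at 0.723, 0.916 and 0.483 FPKM in H1, 17.4, 24.5 and 26.1 in APLNR+, 2.14, 1.89 and 2.40 in CD31+CD34+, then 0.678, 0.762 and 0.770 in CD43+ cells. All APLNR+ libraries stood above all others, and the H1 and CD43+ libraries overlapped. Log2 changes were 3.78 ± 0.15 (adjusted p = 7.23e-10) and then -2.89 ± 0.15 (adjusted p = 6.63e-09).

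SEMA5A, a transmembrane semaphorin with thrombospondin repeats, read 1.70, 2.28 and 1.34 FPKM in H1, 20.7, 33.2 and 26.7 in APLNR+, 2.02, 2.87 and 3.48 in CD31+CD34+, then 0.213, 1.07 and 0.530 in CD43+ cells. APLNR+ replicate 2 was the highest library, and the H1 and CD31+CD34+ libraries overlapped. SEMA5A rose by 3.32 ± 0.23 (adjusted p = 1.22e-07) into APLNR+ cells and fell by 2.87 ± 0.23 (adjusted p = 2.81e-07) into CD31+CD34+ cells and by a further 1.26 ± 0.23 (adjusted p = 0.000543) into CD43+ cells. SEMA3E, the secreted ligand that PLXND1 binds without a neuropilin, averaged 0.497 ± 0.131, 5.53 ± 1.21, 0.985 ± 0.456 and 0.295 ± 0.205 FPKM in the 4 populations, a rise of 2.11 and then a fall of 1.73 on the log2 scale (adjusted p = 1.33e-06 and 4.49e-06). It reached 1 FPKM in 5 libraries and would not have passed the filter without those of APLNR+ cells. The filter thus favoured a rise of SEMA3E into that population and a fall out of it.

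Of the Eph receptors tested, 2 of 6 EphA receptors rose into APLNR+ cells and 2 fell, and 2 of 3 EphB receptors rose. EPHA4, which can bind ephrins of both classes, averaged 4.13 ± 0.222 FPKM in H1, 47.6 ± 3.34 in APLNR+, 16.4 ± 1.52 in CD31+CD34+, then 4.19 ± 0.990 in CD43+ cells. Its rise was 3.24 (adjusted p = 7.73e-10), and its H1 and CD43+ levels differed by less than the spread of the libraries (log2 change 0.00, adjusted p = 0.986). EPHB3 rose by 3.16 (adjusted p = 8.3e-10), from 0.357 ± 0.0408 to 11.3 ± 2.04 FPKM. Its later fall into CD31+CD34+ cells, -1.10 (adjusted p = 6.71e-06), was -0.98 with replicates 2 and 3 alone, just short of 2-fold.

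EPHB2 had the highest mean of the EphB receptors over the 12 libraries. Its values were 6.36, 5.97 and 6.27 FPKM in H1, 15.7, 16.2 and 13.8 in APLNR+, 4.35, 5.34 and 4.71 in CD31+CD34+, then 0.512, 0.650 and 0.886 in CD43+ cells. No populations overlapped, and CD43+ cells were lowest. It rose by 1.17 ± 0.11 (adjusted p = 2.04e-06), then fell by 1.49 ± 0.11 (adjusted p = 1.52e-07) and by 1.79 ± 0.11 (adjusted p = 5.7e-08).

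EPHA2, the EphA receptor with the highest mean over the 12 libraries although EPHA1 was above it in H1, kept its rise for longer. It was at 8.70, 7.12 and 8.04 FPKM in H1, 53.3, 49.9 and 44.4 in APLNR+, 59.1, 57.8 and 49.3 in CD31+CD34+, then 11.2, 13.7 and 11.0 in CD43+ cells. The APLNR+ and CD31+CD34+ libraries overlapped and were far above the others. The rise was 2.49 ± 0.12 (adjusted p = 3.8e-09), the second step 0.17 ± 0.12 (adjusted p = 0.209) and the final fall -2.12 ± 0.12 (adjusted p = 2.37e-08).

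SLIT2, the most abundant of the Slit ligands here, read 1.40, 1.45 and 1.65 FPKM in H1, 6.44, 6.82 and 6.53 in APLNR+, 3.84, 4.34 and 4.44 in CD31+CD34+, then 2.21, 2.42 and 2.82 in CD43+ cells. The populations were separate, in the order APLNR+, CD31+CD34+, CD43+ and H1. Only the first change, 1.61 ± 0.10 (adjusted p = 3.57e-08), reached 2-fold. The remaining genes that rose into APLNR+ cells were EFNA1 (log2 change 1.63), EFNA5 (1.36), PLXND1 (1.23) and EFNB1 (1.11).

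The 4 genes that fell from H1 to APLNR+ cells were EPHA1, SEMA3A, SEMA4D and EPHA8. EPHA1, an Eph receptor common in epithelia, had 49.4, 51.6 and 47.9 FPKM in H1, 12.9, 11.6 and 12.4 in APLNR+, 7.68, 8.68 and 7.85 in CD31+CD34+, then 1.08, 1.39 and 1.48 in CD43+ cells. Its populations were fully ordered with no overlap. The fall was -1.93 ± 0.09 (adjusted p = 5.09e-09) at the first step, -0.55 (adjusted p = 0.00019, under 2-fold) at the second and -1.97 ± 0.09 (adjusted p = 6.73e-09) at the third, or -4.45 ± 0.09 (adjusted p = 2.09e-12) from H1 to CD43+ cells.

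SEMA3A, the classic secreted axon repellent, had the highest class 3 mean over the 12 libraries, although it led the class in H1 alone, and it varied more between libraries than EPHA1. It read 26.8, 46.5 and 40.5 FPKM in H1, 7.45, 13.5 and 11.3 in APLNR+, 3.50, 8.93 and 4.91 in CD31+CD34+, then 1.33, 1.71 and 2.29 in CD43+ cells. Replicate 1 was the lowest library of each population, and the APLNR+ and CD31+CD34+ libraries overlapped. SEMA3A fell by 1.73 ± 0.29 (adjusted p = 0.000334) at the first step and by 1.22 ± 0.29 (adjusted p = 0.00401) at the third, with a log2 change of -3.79 ± 0.29 (adjusted p = 1.64e-07) from H1 to CD43+ cells. Without CD31+CD34+ replicate 2 the third step was -0.91 (adjusted p = 0.0166) and no longer reached 2-fold.

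SEMA4D, known as CD100 on lymphocytes and read by PLXNB1, dipped at day 2. It was at 6.21, 5.25 and 5.04 FPKM in H1, 1.53, 1.46 and 1.32 in APLNR+, 3.49, 4.11 and 4.38 in CD31+CD34+, then 7.80, 6.91 and 5.88 in CD43+ cells. The H1 and CD43+ libraries overlapped, and the APLNR+ libraries were lowest. It fell by 1.41 ± 0.12 (adjusted p = 7.52e-07) and then rose by 1.03 ± 0.12 (adjusted p = 6.92e-06). The rise was just under 2-fold, at 1.00 and 0.97, when APLNR+ replicate 3 or CD31+CD34+ replicate 3 was left out. The change into CD43+ cells was 0.65 (adjusted p = 0.000547), under 2-fold. EPHA8 went from 1.84 ± 0.411 to 0.376 ± 0.0956 FPKM, a fall of 1.04 (adjusted p = 4.14e-06). On FPKM + 1 this fall was just short of 2-fold without H1 replicate 1 (-0.96) or H1 replicate 2 (-0.99). EPHA8 reached 1 FPKM only in the 3 H1 libraries and passed the filter through them. A called change of it from H1 could therefore only be a fall.

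**Figure D3:**
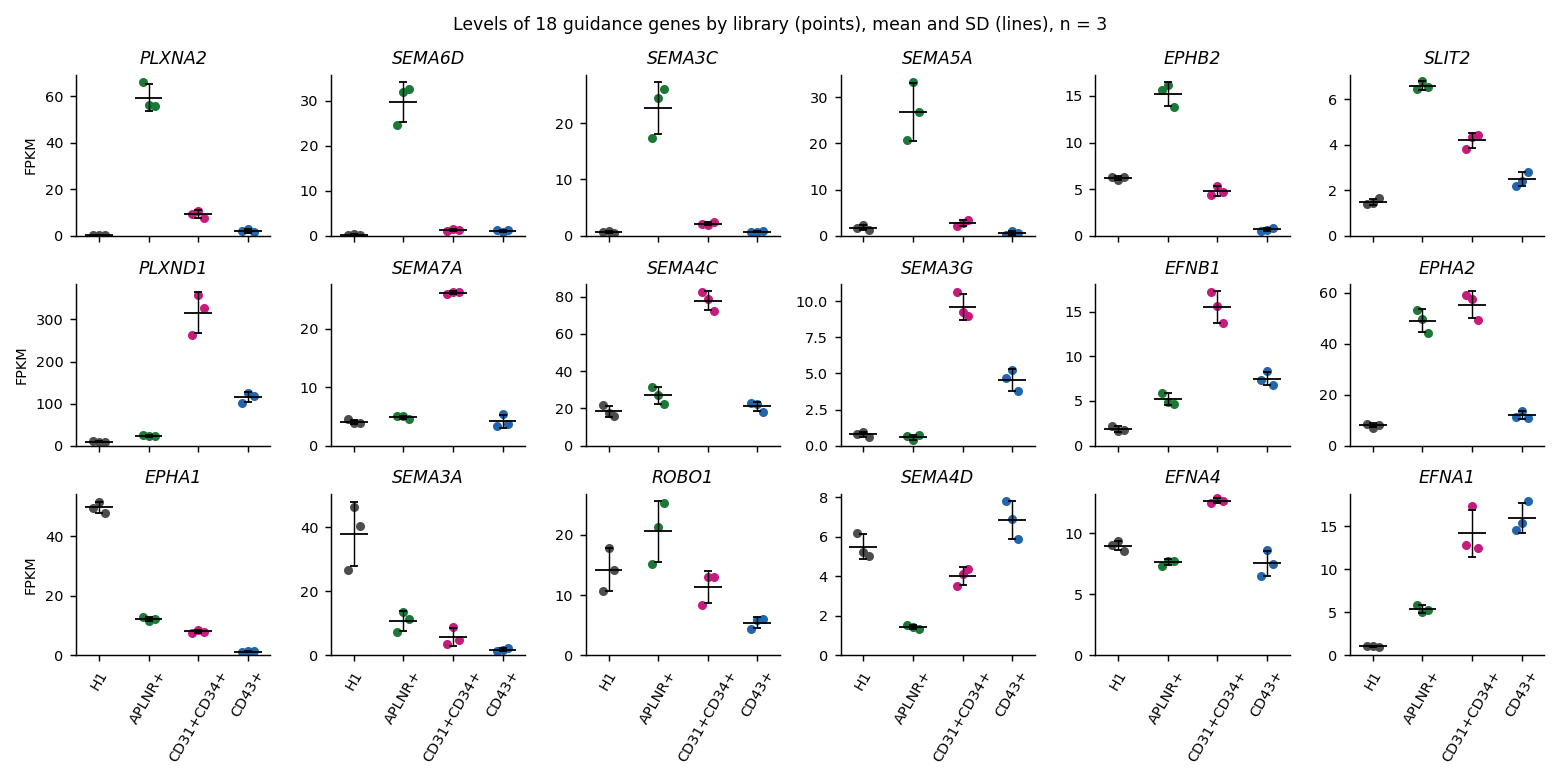
FPKM of 18 guidance genes in each library (points; grey H1, green APLNR+, magenta CD31+CD34+, blue CD43+), with the mean of 3 libraries and the SD as black lines; each panel has its own axis from 0. PLXNA2, SEMA6D, SEMA3C and SEMA5A peak in APLNR+ cells, PLXND1, SEMA7A, SEMA4C and SEMA3G in CD31+CD34+ cells, and EPHA1 and SEMA3A in H1 cells.

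From APLNR+ to CD31+CD34+ cells, 7 of the 48 genes rose (14.6%) and 10 fell (20.8%), close to the 12.5% and 17.1% of all genes tested. Their median change was 0.10 against -0.01 for all genes. The genes that rose were PLXND1, SEMA3G, SEMA7A, SEMA4C, EFNB1, EFNA1 and SEMA4D, among them 4 semaphorins and 2 ephrins. The 10 that fell were SEMA6D, SEMA3C, SEMA5A, PLXNA2, EFNA5, SEMA3E, EPHB2, EPHA4, SEMA5B and EPHB3, and no Eph receptor rose. Summed endothelial markers moved with the rises, from between 68.8 and 82.8 FPKM in the APLNR+ libraries to between 1289 and 1445 in the CD31+CD34+ libraries, and all 6 averaged at least 1 FPKM in the latter. Cardiac and smooth muscle markers were still at 140 to 177 FPKM and the endoderm gene SOX17 averaged 24.2. The part of these markers was not tested.

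PLXND1, the endothelial plexin, reached the highest level of all 55 genes. It read 10.4, 7.97 and 9.48 FPKM in H1, 24.8, 22.3 and 22.2 in APLNR+, 263, 359 and 328 in CD31+CD34+, then 102, 125 and 118 in CD43+ cells. The 4 populations were separate, and the lowest CD31+CD34+ library was replicate 1. Its log2 change was 1.23 ± 0.13 (adjusted p = 6.19e-06), then 3.71 ± 0.13 (adjusted p = 3.1e-10), then -1.45 ± 0.13 (adjusted p = 1.76e-06). In CD43+ cells it was 3.50 ± 0.13 above H1 (adjusted p = 2.08e-10). Endothelial markers were also still present in CD43+ cells, at a sum of 383 to 467 FPKM, with KDR at 110 and CDH5 at 33.9 on average, and their part in the PLXND1 level was not tested.

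SEMA3G, a secreted semaphorin made by endothelium, had 0.793, 0.971 and 0.598 FPKM in H1, 0.642, 0.400 and 0.725 in APLNR+, 10.7, 9.25 and 8.95 in CD31+CD34+, then 4.66, 5.25 and 3.75 in CD43+ cells. H1 and APLNR+ libraries overlapped below 1 FPKM, and both later populations stood above them. The rise was 2.74 ± 0.13 (adjusted p = 4.19e-09), and the level in CD43+ cells exceeded that in H1 by 1.63 ± 0.13 (adjusted p = 2.16e-07).

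SEMA7A, a GPI-anchored semaphorin that binds integrins and PLXNC1, peaked at day 5. It read 4.53, 3.82 and 3.83 FPKM in H1, 5.04, 5.02 and 4.58 in APLNR+, 25.9, 26.3 and 26.3 in CD31+CD34+, then 3.29, 5.48 and 3.63 in CD43+ cells. The 3 CD31+CD34+ libraries were nearly equal and far above the others. It rose by 2.21 ± 0.14 (adjusted p = 3.59e-08) and then fell by 2.43 ± 0.14 (adjusted p = 2.92e-08).

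SEMA4C, a transmembrane semaphorin that binds PLXNB2, had the highest semaphorin mean over the 12 libraries, though SEMA3A and SEMA6A were above it in H1 and SEMA6D and SEMA6A in APLNR+ cells. Its values were 21.6, 17.6 and 15.8 FPKM in H1, 31.4, 27.2 and 22.4 in APLNR+, 82.6, 78.9 and 72.1 in CD31+CD34+, then 22.7, 22.4 and 18.0 in CD43+ cells. The CD31+CD34+ libraries stood apart, and the CD43+ libraries overlapped those of H1 and APLNR+. It rose by 1.51 ± 0.14 (adjusted p = 1.51e-06) and fell by 1.85 ± 0.14 (adjusted p = 5.06e-07).

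Of the ephrin ligands, EFNB1 and EFNA1 rose at this step and EFNA5 fell. EFNB1, a transmembrane ephrin, read 2.21, 1.69 and 1.70 FPKM in H1, 5.94, 4.93 and 4.67 in APLNR+, 17.2, 15.6 and 13.7 in CD31+CD34+, then 7.38, 8.30 and 6.81 in CD43+ cells. No populations overlapped. EFNB1 rose by 1.11 ± 0.12 (adjusted p = 9.4e-06) and by 1.42 ± 0.12 (adjusted p = 6.34e-07). Its last change, -0.96 ± 0.12 (adjusted p = 3.83e-05), was short of 2-fold on FPKM + 1. EFNA1, a GPI-anchored ephrin and ligand of EPHA2, averaged 1.06 ± 0.0308, 5.42 ± 0.437, 14.2 ± 2.72 and 15.9 ± 1.72 FPKM in the 4 populations, with the last 2 overlapping. From H1 to CD43+ cells it rose by 3.03 ± 0.13 (adjusted p = 5.6e-10).

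EFNA4 and EFNA1 had nearly equal means over the 12 libraries, the highest of the ephrin-A ligands, with EFNA1 above EFNA4 in CD31+CD34+ and CD43+ cells. EFNA4 passed no 2-fold change at a consecutive step. It was at 9.05, 9.36 and 8.58 FPKM in H1, 7.33, 7.77 and 7.77 in APLNR+, 12.5, 12.9 and 12.6 in CD31+CD34+, then 6.49, 8.60 and 7.50 in CD43+ cells. The CD31+CD34+ libraries were highest, without overlap. The changes into and out of that stage were 0.66 ± 0.10 (adjusted p = 5.4e-05) and -0.69 ± 0.10 (adjusted p = 7.96e-05), both under 2-fold. SEMA5B, the other gene with a called fall not yet described, went from 3.84 ± 0.186 to 0.857 ± 0.340 FPKM (log2 change -1.40, adjusted p = 5.71e-06).

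From CD31+CD34+ to CD43+ cells, 0 of the 48 genes rose and 15 fell (31.2%), where 5.58% of all genes tested rose and 8.79% fell. At an unadjusted p under 0.05, 2 of the genes were higher in CD43+ cells by limma, 0 of them by 2-fold. The share of all genes at that unadjusted limit was not counted. At an adjusted p under 0.05 without a fold limit, the same 2 genes and 25.9% of all genes tested were higher. The median change was -0.83 against 0.00 for all genes. The 15 were SEMA7A, EPHA2, EPHA1, PLXNA1, SEMA4C, EPHB2, EPHA4, SEMA3F, PLXNA2, EFNA2, PLXND1, SEMA5A, SEMA3A, PLXNB1 and EPHB3, which covers 5 semaphorins, 4 plexins, 5 Eph receptors and 1 ephrin. No Slit or Robo gene was called. The 3 largest falls were those of SEMA7A, EPHA2 and EPHA1, given above.

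Others that fell at this step were PLXNA1, a receptor of SEMA6D, from 22.2 ± 1.70 to 5.29 ± 0.533 FPKM, with a log2 change of -1.89 (adjusted p = 1.84e-08), and SEMA3F, a secreted ligand of NRP2, from 13.3 ± 0.735 to 3.34 ± 1.04 (-1.75, adjusted p = 2.01e-06). EFNA2, a GPI-anchored ephrin, went from 3.16 ± 0.181 to 0.341 ± 0.264 (-1.65, adjusted p = 7.24e-07), and PLXNB1, the SEMA4D receptor, from 15.1 ± 0.961 to 6.08 ± 0.785 (-1.19, adjusted p = 1.15e-06). Both genes that were higher in CD43+ cells at an unadjusted p, SEMA4D (0.65) and PLXNA4 (0.64, adjusted p = 0.00113), were named after their values were seen. PLXNA4 would not have passed the filter without its CD43+ libraries. Endothelial markers went down over the same step, from 1289 to 1445 FPKM to 383 to 467. Summed cardiac and smooth muscle markers went from 140 to 177 down to 32.1 to 47.1, although ACTA2 of that list went up from 13.3 to 34.8 on average. MYH6 and MYH11 stayed below 1 FPKM. Blood markers went up from 27.2 to 36.4 FPKM to between 683 and 723. Their part was not tested.

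**Figure D4:**
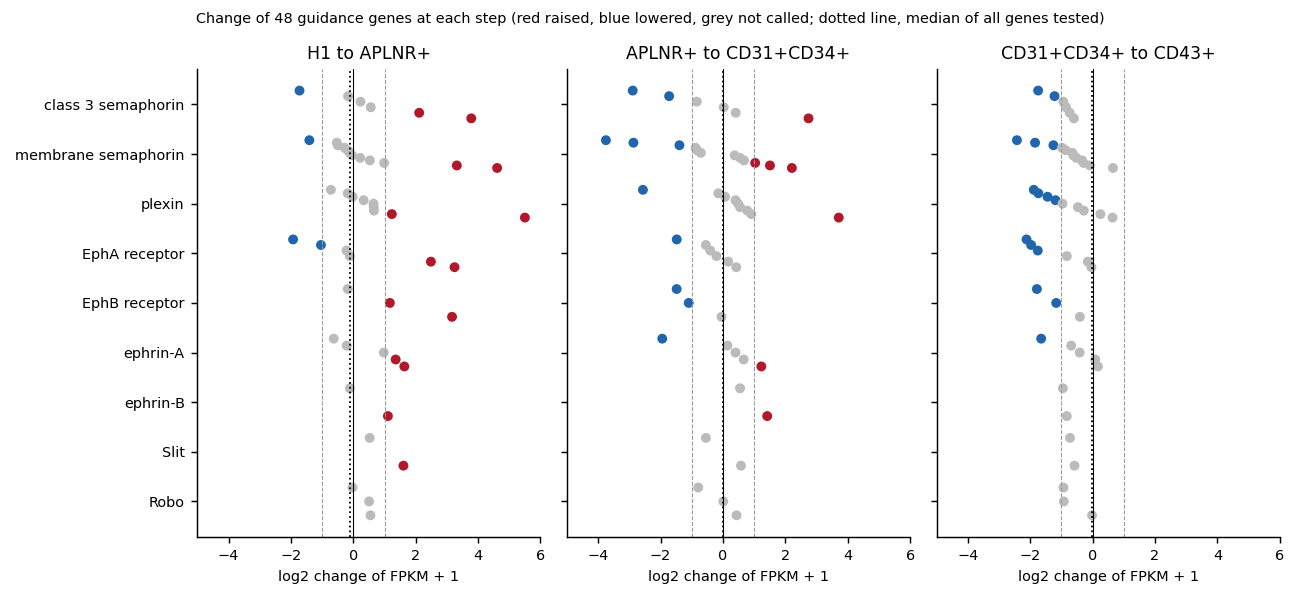
Log2 change of FPKM + 1 at each consecutive step for the 48 tested guidance genes, 1 point per gene, by class (red, rose; blue, fell; grey, not called; dashed lines, 2-fold; dotted line, median of all genes tested). The first panel has 14 red and 4 blue points, the second 7 and 10, and the third 0 and 15.

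ROBO1, the most abundant Robo receptor, read 10.6, 17.7 and 14.2 FPKM in H1, 15.2, 21.2 and 25.3 in APLNR+, 8.32, 12.9 and 12.9 in CD31+CD34+, then 4.40, 5.79 and 6.06 in CD43+ cells. The first 2 populations overlapped, and the CD43+ libraries were below all others. No consecutive step reached 2-fold on FPKM + 1 (0.50, -0.79 and -0.93), but over the whole course ROBO1 fell by 1.23 ± 0.22 (adjusted p = 0.000315). ROBO2 was at 1.45 ± 0.206 FPKM in H1 and 3.83 ± 0.976 in CD43+ cells (log2 change 0.96, adjusted p = 0.000178). ROBO3, which controls midline crossing of axons, was at 3.63 ± 0.601 and 1.45 ± 0.649 (-0.94, adjusted p = 0.0003). Both changes were under 2-fold on FPKM + 1, though not on FPKM.

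Between the ends of the course, H1 and CD43+ cells, 6 of the 48 genes rose (12.5%) and 10 fell (20.8%), near the 14.6% and 22.5% of all genes tested. The median change was -0.18 against -0.10. Besides PLXND1, EFNA1, SEMA3G, EFNB1 and PLXNA2, the gene that rose was PLXNA4, an A-type plexin, which averaged 0.361 ± 0.136, 0.198 ± 0.0452, 1.08 ± 0.383 and 2.20 ± 0.251 FPKM in the 4 populations (log2 change 1.24, adjusted p = 2.06e-06). Falls were led by EPHA1 and SEMA3A and included EPHB2 (-2.10), PLXNB1 (-2.06), SEMA6B (-1.90), SEMA6A (-1.86), SEMA5B (-1.85), EPHA8 (-1.49), ROBO1 (-1.23) and EFNA5 (-1.01). Of these, EPHA8 had passed the filter through its H1 libraries alone. Among the rises, PLXNA4 reached 1 FPKM in 4 libraries and would not have passed the filter without those of CD43+ cells. The filter thus favoured a rise of PLXNA4 from H1 to CD43+ cells. SEMA6A, a transmembrane ligand of PLXNA2, went down without a single 2-fold step, at 34.3 ± 6.96, 27.7 ± 1.82, 16.7 ± 3.18 and 8.72 ± 1.86 FPKM. The EFNA5 libraries of H1 and CD43+ cells overlapped, and its fall was short of 2-fold without H1 replicate 2 (-0.90) or 3 (-0.82) or without CD43+ replicate 1 (-0.82) or 2 (-0.91).

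The remaining genes were not tested or were not called at any consecutive step. SEMA3D, SEMA4G, EPHA3, EPHA5, EPHA10, EPHB1 and SLIT1 did not pass the filter, and their highest population means were 0.807, 1.05, 0.407, 0.120, 0.398, 0.699 and 0.157 FPKM. EPHA10 was listed at 0 in all 3 CD31+CD34+ libraries. Tested and not called at such a step, beside EFNA4, PLXNA4, SEMA6A, SEMA6B and the Robo genes, were SEMA3B, SEMA4A, SEMA4B, SEMA4F, SEMA6C, PLXNA3, PLXNB2, PLXNB3, PLXNC1, EPHA6, EPHA7, EPHB6, EFNA3, EFNB3 and SLIT3. Of these, PLXNB2 was the most abundant, at 6.27 ± 0.169 FPKM in H1 and 15.0 ± 1.28 in CD31+CD34+ cells. SEMA4A came nearest to a call, at 0.99 (adjusted p = 3.4e-06) into APLNR+ cells.

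Position on the chromosome was not used to choose the genes, and in the RefSeq annotation 5 pairs of them are direct neighbours among protein-coding genes. EFNA4, EFNA3 and EFNA1 follow each other on chromosome 1. EFNA1 rose from 1.06 to 15.9 FPKM between H1 and CD43+ cells, while EFNA3 averaged 2.12 ± 0.259 and 1.85 ± 0.546 (log2 change -0.14, adjusted p = 0.491) and EFNA4 9.00 ± 0.392 and 7.53 ± 1.06 (-0.24, adjusted p = 0.0416). SEMA3E, SEMA3A and SEMA3D follow each other on chromosome 7, and into APLNR+ cells SEMA3E rose by 2.11, SEMA3A fell by 1.73 and SEMA3D stayed below 1 FPKM in every library. ROBO2 and ROBO1 adjoin on chromosome 3, with log2 changes of 0.96 and -1.23 from H1 to CD43+ cells. The differences between the neighbours' changes were not tested.

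**Figure D5:**
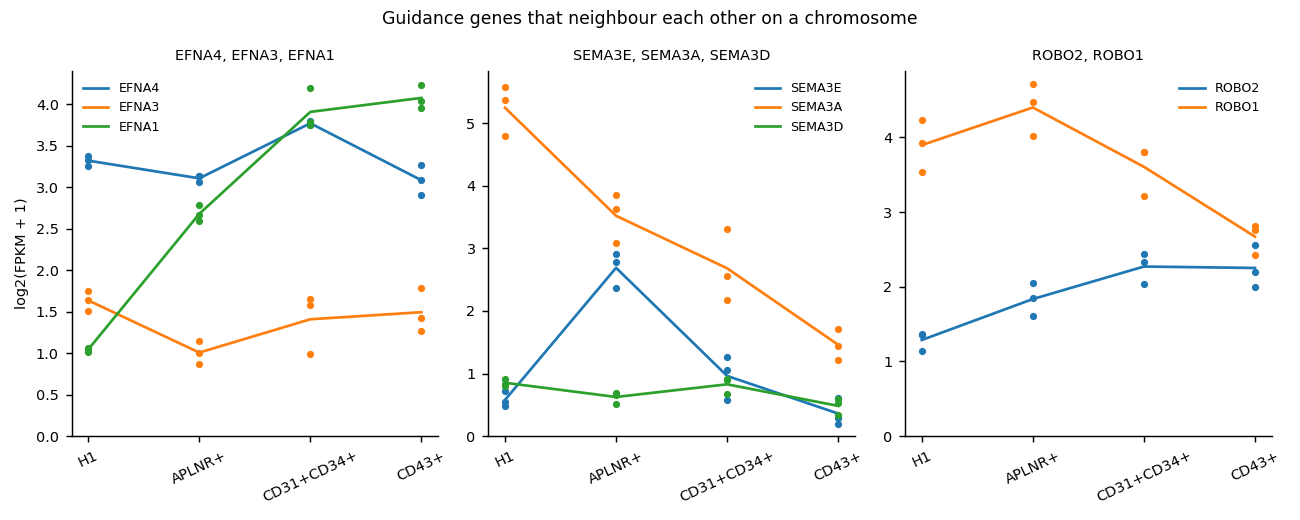
log2(FPKM + 1) of guidance genes that are direct neighbours on a chromosome, with libraries as points and population means joined by lines. EFNA1 climbs while EFNA3 and EFNA4 stay within narrow ranges, SEMA3E and SEMA3A move in opposite directions into APLNR+ cells, and ROBO1 declines toward the level of ROBO2.

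RNA for a ligand and its known receptor was looked for in the same population. Of 15 ligand and receptor pairs listed from general knowledge, both partners reached 1 FPKM in all 3 libraries for 7 in H1, 11 in APLNR+, 10 in CD31+CD34+, then 8 in CD43+ cells, and both reached 5 FPKM for 2, 6, 3 and 3. Most guidance genes reached a mean of 1 FPKM anyway (35, 41, 44 and 35 of 55), and some stood in more than 1 pair. Pairs of unmatched genes were not counted, so these counts do not show that partners occur together more than other genes. SEMA4C with PLXNB2 met the higher level in all 4 populations, and EFNA1 with EPHA2 in all but H1. SEMA6A with PLXNA2 and SEMA6D with PLXNA1 met it in APLNR+ cells, at means of 27.7 with 59.3 and 29.8 with 16.6 FPKM. In contrast, SEMA3E averaged 0.985 FPKM in CD31+CD34+ cells, where its receptor PLXND1 was at 317, and SEMA7A averaged 26.2 where PLXNC1 was at 0.753. These are RNA levels of pooled cells and do not show that both partners are in 1 cell.

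A list of 89 partner genes, written from general knowledge, held co-receptors, intracellular effectors and netrin-family guidance genes, of which 83 were tested. From H1 to APLNR+ cells, 13 of these rose (15.7%, against 8.30% of all genes) and 9 fell (10.8%, against 7.62%). At the second step 19 rose (22.9%, against 12.5%) and 13 fell (15.7%, near the 17.1% of all genes). At the third 3 rose (3.61%, against 5.58%) and 25 fell (30.1%, against 8.79%). Their median changes were 0.06, 0.21 and -0.59, against -0.12, -0.01 and 0.00 for all genes. Largest at the first step were the rise of NRP1, a co-receptor of class 3 semaphorins, from 0.534 to 18.6 FPKM, a log2 change of 3.67 ± 0.14 (adjusted p = 6.15e-10), and the fall of DPYSL3, a cytoplasmic mediator of semaphorin signals, from 91.0 to 10.3 (-3.02 ± 0.10, adjusted p = 1.93e-10). At the second step MICAL2, an actin-oxidising enzyme of a plexin-associated family, rose from 3.89 to 53.3 FPKM (3.48 ± 0.16, adjusted p = 2.6e-09). At the third step EFNB2, the arterial ephrin, rose from 3.59 to 11.0 FPKM (1.39 ± 0.10, adjusted p = 2.52e-07) and NRP2, the co-receptor of SEMA3F and SEMA3G, fell from 149 to 18.3 (-2.94 ± 0.14, adjusted p = 8.42e-09). At that step 7 of 11 co-receptors and excluded receptors fell (63.6%) and 8 of 22 semaphorin and plexin effectors (36.4%), where 8.79% of all genes did. Of the netrin-family genes 5 of 14 fell (35.7%). The shares were lower for Eph and ephrin effectors, at 3 of 20 (15%), and for Slit and Robo effectors, at 2 of 16 (12.5%).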

How the data were processed

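RNA-seq was available for 12 libraries, 3 for each of 4 populations, grouped by sample title. The authors deposited FPKM values in a single table, 1 column for each library. The submitters' processing notes name BWA, Bowtie, RSEM and hg19, without roles or versions, and libraries were made from total RNA with an Illumina TruSeq kit. Of 58366 lines, 1 held text and was left out. Where a symbol stood on more than 1 line (345 symbols), the line of highest mean was used.

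FPKM are not counts, so no count model was run. Values were transformed as log2(FPKM + 1), genes were kept at 1 FPKM or more in at least 3 libraries (14840), and limma 3.58.1 (R 4.3.3; lmFit, contrasts.fit, eBayes with trend) was fitted to the 4 populations together, without covariates. Calls needed an adjusted p under 0.05 (Benjamini-Hochberg over all 14840 genes) and a 2-fold change of FPKM + 1. The script was tested on simulated data. Full values were given for the 3 largest rises and falls per step among called genes without overlap, and for the most abundant gene of each class. The called partner genes with the largest rise and fall per step were named, except the fall at the second step, which is not reported here. The genes and lists were chosen with earlier results of these data known. Sums and figures used Python 3.11.15 with pandas 2.3.3 and matplotlib 3.10.9. Alternatives were a pseudocount of 0.1, no filter, upper-quartile and quantile scaling, a replicate block, replicates 2 and 3 alone, the compared populations alone, no minimum change, summed lines, and leaving out each library. Precision is limited by 3 libraries per population, and depth is unknown for FPKM.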

Additional observations from a re-analysis of the deposited data

How the results depend on the processing

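Of 66 called changes of single guidance genes, 61 kept their call under all 9 other settings and all 12 leave-one-out fits, 5 fell just short of 2-fold under at least 1 (EPHA8, EPHB3, SEMA4D, SEMA3A and EFNA5), and 0 reversed. Not every setting could remove a call. Dropping the minimum change only loosens the limit, and summing lines left the values of these genes as they were, since none has a repeated symbol. Without a minimum change, the counts of genes that rose and fell were 23 and 8 from H1 to APLNR+, 21 and 18 from APLNR+ to CD31+CD34+, 2 and 35 from CD31+CD34+ to CD43+, and 15 and 23 from H1 to CD43+ cells. The shares of all genes that rose and fell were then 22.7% and 35.2%, 35.9% and 37.9%, 25.9% and 27.8%, and 33.2% and 41.5%. With a pseudocount of 0.1, 1 gene rose and 27 fell from CD31+CD34+ to CD43+, and 12 rose and 16 fell from H1 to CD43+ cells, since a smaller pseudocount gives larger changes at low levels. The shares of all genes were 9.62% and 14.7%, and 19.0% and 28.2%. Under it 10 called changes grew by more than 1.5 times, such as PLXNA2 from H1 to CD43+ cells (1.19 to 2.35), EFNA2 from CD31+CD34+ to CD43+ cells (-1.65 to -3.11) and EPHA8 from H1 to CD43+ cells (-1.49 to -4.15). Quantile normalization moved the median change of all genes from H1 to CD43+ cells from -0.10 to 0.02 and gave 8 rises and 9 falls of guidance genes there, against 6 and 10. Of all genes, 16.9% rose and 19.0% fell under it. With replicates 2 and 3 alone, 16 genes rose and 3 fell from H1 to APLNR+ cells, 7 and 9 from APLNR+ to CD31+CD34+ cells, and 0 and 17 from CD31+CD34+ to CD43+ cells. The shares of all genes were then 8.49% and 7.34%, 13.5% and 17.5%, and 5.67% and 8.92%. Class sums moved by less than 1.5 times under the settings run on them.

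Same-numbered libraries of different populations deviated together at correlations of 0.196 to 0.429 for replicate 1. The range was 0.0254 to 0.247 for replicate 2 and -0.0214 to 0.269 for replicate 3. Differently numbered libraries ranged from -0.404 to 0.289, with 7 of 36 pairs over 0.1. All 6 pairs of replicate 1 were over 0.1, against 3 of 6 for replicate 2 and for replicate 3. The replicate 1 libraries thus shared a deviation. Because only 6 of 12 libraries correlated best with their own number, the numbers were not taken as pairs. With the replicate block, 14 genes rose and 4 fell from H1 to APLNR+, 7 and 10 from APLNR+ to CD31+CD34+, 0 and 15 from CD31+CD34+ to CD43+, and 6 and 10 from H1 to CD43+ cells, as without it. The shares of all genes with the block were 8.33% and 7.63%, 12.6% and 17.1%, 5.62% and 8.80%, and 14.6% and 22.5%.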
